A study of Mus musculus with 2 samples.

Results

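Natural killer cells made up 47 barcodes of the control library and 15 barcodes of the MYC library, 62 of the 31569 barcodes deposited in both. They were chosen from single-cell 3′ RNA libraries of mouse bone marrow by their transcripts. A barcode (1 droplet, usually 1 cell) was kept if it held at least 1000 UMIs (unique molecular identifiers, each marking 1 captured transcript) and under 10% mitochondrial UMIs. It counted as a natural killer cell if the summed UMIs of Ncr1, Klrb1c, Klre1 and Gzma reached 2 and those of the T cell receptor chains Cd3d, Cd3e and Cd3g did not exceed 1. It also had to hold under 1% of UMIs from Elane, Mpo, Prtn3 and Ctsg, under 5% from S100a8 and S100a9, and no Siglech. The levels of these genes in the members are therefore a description.

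The control library came from an Mx1Cre+/-;Rosa26+/+ animal or animals and the MYC library from Mx1Cre+/-;Rosa26LSL-MYC/LSL-MYC, so that both genotypes carried the Cre transgene. Both labels name bone marrow and primary hematopoietic cells, and the ages, and whether animals were pooled, are not given in the sources used here. The Mx1 promoter, which drives Cre here, responds to interferon. The LSL-MYC allele at the Rosa26 locus holds MYC behind a stop cassette that Cre cuts out. With 1 library per genotype there was no replicate, so no difference between the libraries carries a test, and genotype and library cannot be told apart. Intervals are 95% and cover counting error only.

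Natural killer (NK) cells are innate lymphocytes that develop in bone marrow. They kill infected or transformed cells by releasing perforin and granzymes, under the balance of activating and inhibitory receptors. In the mouse these receptors include the C-type lectins of the Nkg2 and Ly49 families, many of which signal through the adaptors Tyrobp (DAP12) and Fcer1g. Commitment and maturation depend on the T-box factors Eomes and Tbx21, and on IL-15 received through Il2rb.

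Granzyme A and granzyme B, serine proteases of the killing granule, carry much of what follows: Gzma is one of the genes that chose the members, and Gzmb is not. Gzma lies on chromosome 13 (GRCm38, 113093825 to 113100981, minus strand) and Gzmb on chromosome 14 (56258838 to 56262260, minus strand). The 250 bases upstream of each start site are shown because Gzma splits the members below and Gzmb differs between the sets so formed. They are RefSeq sequences (GRCm38.p6), at chr13:113100982-113101231 and chr14:56262335-56262584, both read 5′ to 3′ on the minus strand. The RefSeq start site of Gzmb lies upstream of the gene end given above, which is from GENCODE, while those of Gzma coincide. Capitals mark the RUNX core TGTGGT or its reverse complement ACCACA, and the AP-1 element TGACTCA or its reverse complement TGAGTCA.
Gzma: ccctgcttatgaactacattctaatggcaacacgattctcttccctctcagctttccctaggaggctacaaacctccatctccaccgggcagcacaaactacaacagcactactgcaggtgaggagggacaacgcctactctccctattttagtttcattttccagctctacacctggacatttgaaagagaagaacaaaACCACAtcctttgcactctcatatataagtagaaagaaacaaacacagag
Gzmb: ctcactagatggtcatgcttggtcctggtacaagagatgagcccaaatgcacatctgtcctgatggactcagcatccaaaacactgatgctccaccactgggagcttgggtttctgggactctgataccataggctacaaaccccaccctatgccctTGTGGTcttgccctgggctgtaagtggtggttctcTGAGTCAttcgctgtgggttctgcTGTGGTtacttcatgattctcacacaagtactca
The Gzma window held 1 RUNX core and the Gzmb window 2, with 1 AP-1 element between those. On either strand, TGTGGT stood in 14.05% of 32851 windows of this length, in a window of 15.92% of 27025 genes and in 12 of the 23 NK genes with a window (52.2%), among them Prf1, Nkg7, Klrk1, Ncr1, Klrb1c and Klre1. TGACTCA stood in 4.46% of windows, 5.16% of genes and 2 of the 23 genes, Gzmb and Cd244a. The T-box element AGGTGTGA stood in 1.12% of windows, 1.30% of genes and 1 of the 23, Nkg7. These are matches of letters, and binding was not measured.

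NK cells were 0.355% of the 13251 kept control barcodes (47; exact interval 0.261 to 0.471) and 0.142% of the 10543 kept MYC barcodes (15; 0.0797 to 0.235). The share was 2.49-fold lower in the MYC library, a difference of -0.212 percentage points (-0.345 to -0.0807), beyond counting error. The other lymphocytes stood lower as well. T cells (Cd3 sum of 2 or more, NK marker sum of at most 1) were 1.53% and 0.740%, B cells 9.28% and 3.84%, and Cd3-positive cells that reached the NK marker sum 0.792% and 0.313%. Among lymphocytes, counted as the sum of these 4 classes, NK cells were 2.97% of 1585 in the control library and 2.82% of 531 in the MYC library. That difference was -0.140 points with an interval from -1.70 to 1.81, so a shift in either direction within it was not detectable at these numbers. In a library of this kind, fewer cells of a type and more cells of the others give the same share.

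**Figure D1:**
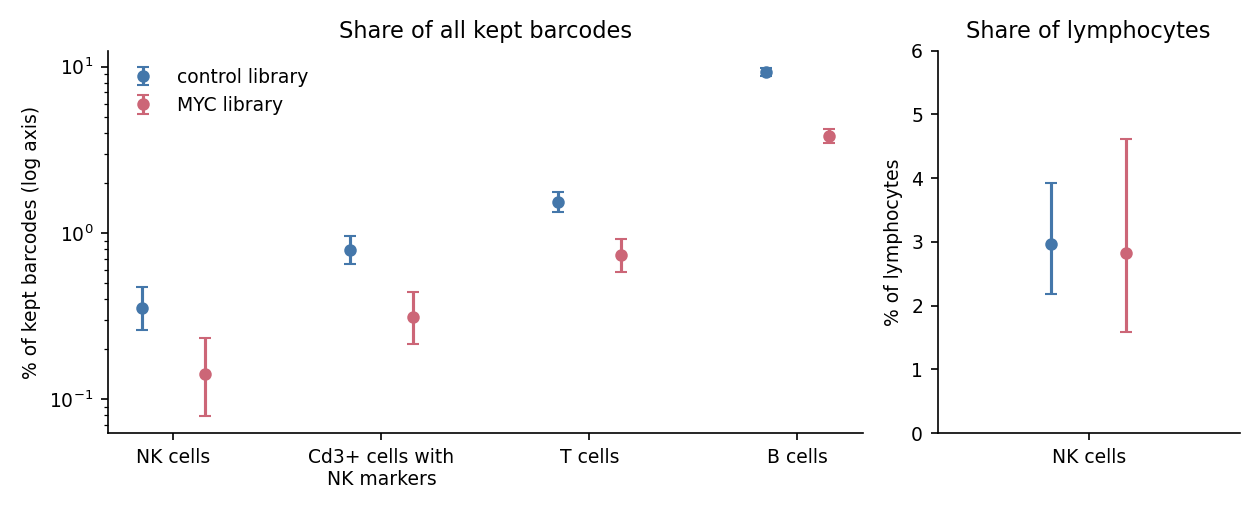
Share of kept barcodes in each library (left, percent on a log axis) for NK cells, Cd3-positive cells with NK markers, T cells and B cells, and the NK share of lymphocytes (right, percent); points are shares and bars exact 95% intervals. All 4 classes stand lower in the MYC library on the left, from 0.355% to 0.142% for NK cells, while on the right the NK shares of 2.97% and 2.82% overlap.

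The Cd3 limit removed most barcodes that reached the NK marker sum. Of 181 such control barcodes 120 exceeded it, and of 53 MYC barcodes 35. Of those that passed it, the remaining limits removed 14 control and 3 MYC barcodes. The 10 control barcodes that failed the S100a8 and S100a9 limit held Gzma at 1325, Klre1 at 338 and Ncr1 at 238 UMIs per 1000000 UMIs of the cells (CPM), against 1415, 444 and 362 CPM in the members. Both sets had to reach the marker sum, so the levels of these rule genes are set in part by the choice. Just inside the marker threshold, with a sum of 2, were 2 members in each library. Just outside it, with a sum of 1, were 51 control and 27 MYC barcodes, in which Ccl5 stood at 1.48 and 5.35 CPM and Nkg7 at 41.5 and 120.3 CPM. Just outside the Cd3 limit, with a sum of 2, were 8 and 4 barcodes.

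The members held 387155 UMIs in the control library (1392 to 24280 per barcode, median 7012) and 84315 in the MYC library (1399 to 24099, median 4456). Depth therefore differed along with genotype. The 2 libraries shared 97 barcodes, none of them a member. Every further gene of a list of 24 NK genes not used by the rule was detected in the members of both libraries. Summed, that list stood at 8211 CPM in control members against 303.3 in all other kept barcodes, 1779 in T cells and 84.9 in B cells. In the MYC library it stood at 6986, 248.6, 2589 and 153.7 CPM.

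A total of 4 members did not hold the label clearly: 3 carried transcripts of other cells and 1 was shallow with few NK genes. The deepest MYC barcode, with 24099 UMIs, held 28.6% of that library's NK UMIs. It met the rule through 3 UMIs of Klrb1c alone and had a UMI in 2 of the 24 further NK genes. It carried instead 90 UMIs of Dntt, the terminal transferase of early lymphocytes, 45 of Plac8, 10 of Flt3 and 6 of Cd34, with 132 UMIs of 13 mitosis genes. The shallowest MYC barcode, with 1399 UMIs, had 2 of the 24 genes (Klrk1 and Eomes, with 2 UMIs each) and 2 UMIs of Klre1. A control barcode of 10575 UMIs had 2 of the 24, with 19 UMIs of the monocyte gene Ly6c2 and 56 of Lyz2. Another control barcode, of 20224 UMIs, had 18 of the 24 but held 7.50% of its UMIs in 13 erythroid genes, 559 of them Hbb-bs. A check chosen after these values were seen asked for at least 3 of the 24 genes and under 1% erythroid UMIs. It left 45 control and 13 MYC members, called checked members below, with medians of 6818 and 4456 UMIs. Their shares were 0.340% and 0.123%, a difference of -0.216 points (-0.345 to -0.0895).

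**Figure D2:**
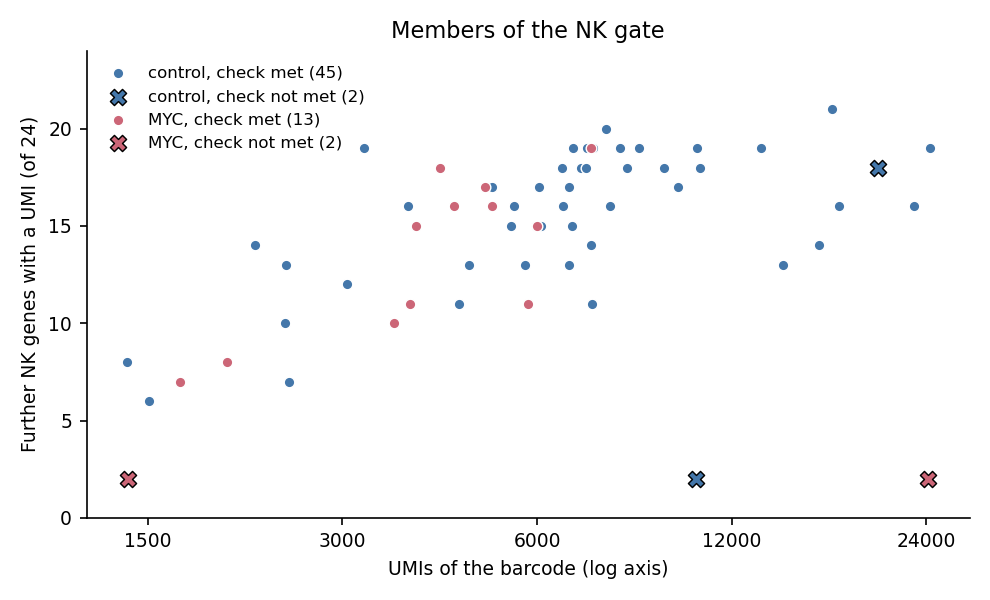
Each point is 1 member, by its UMIs (log axis) and the number of 24 further NK genes with a UMI; crosses mark the members that did not meet the check. The 3 crosses at the bottom hold 2 of the 24 genes at 1399, 10575 and 24099 UMIs, and the upper cross is the control barcode with 7.50% erythroid UMIs.

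Of the transcripts of other cell types, those of neutrophils were the most abundant in checked members. The list of 34 neutrophil genes summed to 4829 CPM in checked control members and 11051 CPM in checked MYC members. Over all members it summed to 4871 and 9014 CPM, with 29 and 23 genes detected. The same list stood at 7002 and 9472 CPM in T cells, 6323 and 8761 CPM in B cells and 153906 and 194406 CPM in the other barcodes. The list of 13 erythroid genes summed to 1639 and 1649 CPM in checked members, and to 5458 and 1340 CPM over all members, where it exceeded the neutrophil list in the control library through the barcode described above. The B and plasma cell list stood at 907 and 913 CPM, the monocyte and macrophage list at 1341 and 1115 CPM, the basophil and mast cell list at 15.5 and 23.7 CPM and the megakaryocyte list at 12.9 and 11.9 CPM, all over the whole sets of members. The T cell list had 9 of 17 genes detected in each library and summed to 429 and 415 CPM, against 3471 and 4302 CPM in T cells. Of T cell receptor genes, Trac was at 0 in control members and had 2 UMIs in 1 MYC member. Cd4 and Cd8a were at 0 in both. Trbc1, the constant region of the beta chain, had 77 UMIs in 29 of the 47 control members and 14 UMIs in 9 of the 15 MYC members. Trdc, of the delta chain, had 20 UMIs in 14 control members and 2 in 2 MYC members.

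Doublet calling with Scrublet marked 670 control barcodes, 1 of them a member, and no MYC barcode at all, so it did not work in the MYC library and no member was removed by it. Xist, the X inactivation transcript, was present at 430 and 70 UMIs in the members, and the Y-linked genes Ddx3y, Uty, Kdm5d and Eif2s3y were at 0 in both.

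Beyond the rule's genes, the 15 transcripts that stood highest over all other kept barcodes in both libraries included receptors, killing proteins and T-box factors. The order below is by the smaller of the fold differences of the libraries. Klra4 (Ly49D, an activating receptor) was highest, at 496 CPM in control members and 344 CPM in MYC members, 717-fold and 1113-fold above the other barcodes. Klra8 (Ly49H, an activating receptor of a viral protein) stood at 181 and 261 CPM, 235-fold and 3379-fold above. Klri2, of the killer lectin family, stood at 204 and 83.0 CPM, 225-fold and 391-fold above. Eomes, which specifies conventional NK cells, stood at 323 and 225 CPM, 166-fold and 359-fold above. The killing proteins followed: Prf1, the pore former, was 149-fold and 378-fold above and Gzmb 186-fold and 135-fold above. The other named genes were Klra7 (Ly49G), Klrc2 and Klrc1 (Nkg2 chains), Tbx21, Samd3, Klrk1 (NKG2D), Il2rb, Xcl1, a chemokine for dendritic cells, and Txk. They lay between 62.1-fold and 102-fold above in the control library and between 123-fold and 392-fold in the MYC library.

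All 15 of these genes were also higher in NK cells than in T cells of the same library. The fold over T cells was narrow for some: in the MYC library it was 1.26 for Gzmb, 1.64 for Tbx21 and 2.08 for Il2rb. In the control library the same folds were 45.9, 5.86 and 2.77. T cells of the MYC library held more Prf1 and Gzmb than those of the control library, with log2 ratios of 2.43 and 5.01. Against Cd3-positive cells with NK markers, some of the genes stood apart and others did not. Klra4 was 10.2-fold and 3.43-fold higher in NK cells, Gzmb 15.6-fold and 1.63-fold, Prf1 4.34-fold and 4.53-fold and Eomes 2.36-fold and 4.70-fold. Il2rb, at 1.23-fold and 1.10-fold, Txk, at 1.07-fold and 1.01-fold, and Xcl1, at 0.835-fold and 0.765-fold, stood at similar levels in both kinds of cell.

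**Figure D3:**
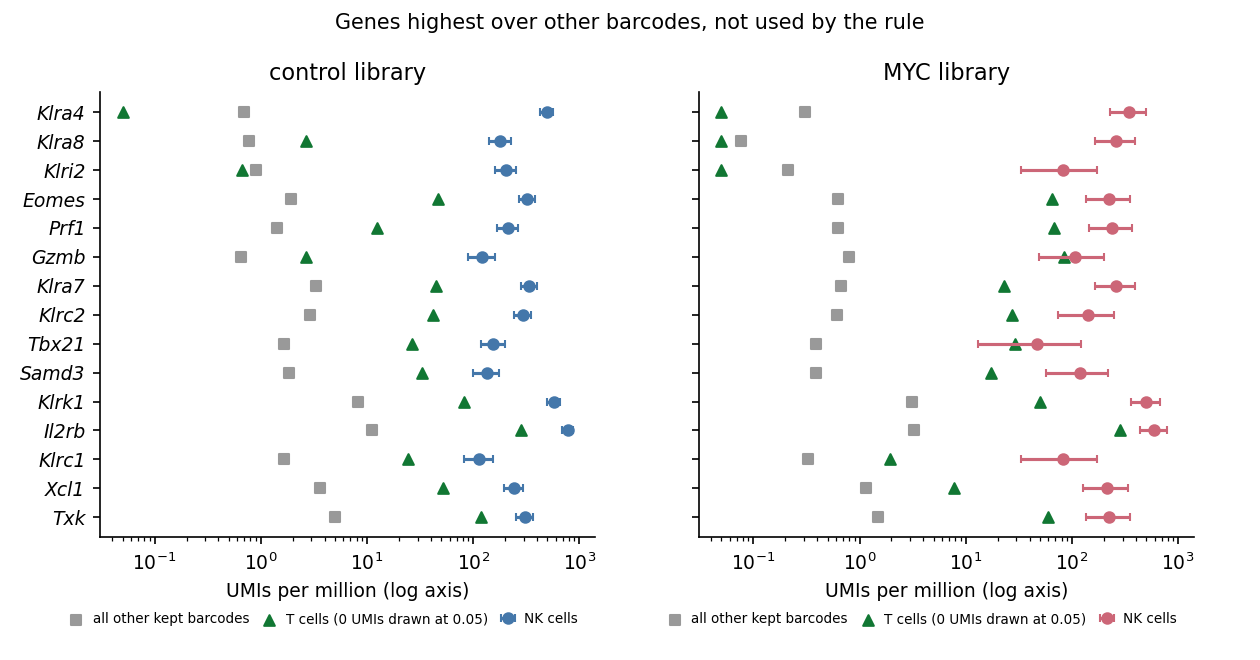
Summed level (CPM, log axis) of the 15 genes in NK cells (circles, with exact 95% intervals), T cells (triangles, 0 UMIs drawn at 0.05) and all other kept barcodes (squares), for the control library (left) and the MYC library (right). NK cells stand to the right of the other barcodes for all 15 genes in both libraries, and the MYC triangles of Gzmb and Tbx21 lie within the NK intervals.

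The Ly49 receptors, encoded side by side on chromosome 6, are known to be switched on in some NK cells and not in others. In the members 9 of the 11 genes had a UMI in the control library and 7 in the MYC library. Klra4 had 192 UMIs in 19 control members and 29 UMIs in 5 MYC members. Klra7, an inhibitory receptor, had 131 UMIs in 24 and 22 UMIs in 8 members. Klra8 had 70 UMIs in 15 and 22 UMIs in 5 members, and Klra1 (Ly49A, inhibitory) had 31 UMIs in 6 members and 1 UMI in 1. Most cells thus had several Ly49 transcripts or none: of the 45 checked control members 13 had no Ly49 gene with a UMI, 4 had 1, 12 had 2, 11 had 3, 4 had 4 and 1 had 5. Of the 13 checked MYC members 4 had none, 1 had 1, 2 had 2, 5 had 3 and 1 had 5. Some members of the family are hard to count apart. Of the 50-base stretches in the last 500 bases of the annotated transcripts, 46.0% of Klra9, 40.6% of Klra10, 31.5% of Klra3 and 13.1% of Klra8 also occurred in another Ly49 gene, so the counts of Klra3, Klra8 and Klra9 are uncertain. For Klra4 this share was 4.66% and for Klra7 0%. Of the 11 Ly49 genes 3 had enough UMIs to be compared between the libraries, and 0 differed by 2-fold with a counting interval without 1, beside 6.21% higher and 6.38% lower of all tested genes.

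The checked members were split by whether they held a UMI of Gzma. It was at 0 in 16 of 45 control members (35.6%, 21.9 to 51.2) and in 5 of 13 MYC members (38.5%, 13.9 to 68.4). Since Gzma is a rule gene, a member without it had to reach the marker sum through Ncr1, Klrb1c and Klre1, and the levels of these 3 are set in part by the choice. In all other kept barcodes Gzma stood at 2.54 and 0.241 CPM. A further set of 10 control members held 5 or more UMIs of the mitosis genes, and all of these had Gzma. The remaining 19 control members with Gzma, which were not dividing by this measure, were set beside the 16 without. Their median depths were 7012 and 5226 UMIs.

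Of the late maturation list, 8 of 14 genes had at least 20 UMIs over both sets, and 7 of these were lower in the control members without Gzma by a ratio whose counting interval leaves out 1. They were Gzmb, Prf1, Zeb2, Itgam, Irf8, Klf2 and Lgals1, and Spn, at 0.37 (-0.71 to 1.43), was the exception. Of the granule list 8 of 20 genes had as many UMIs, and 4 were lower and 0 higher in this sense (Gzmb, Prf1, Nkg7 and Serpinb6b). Ctsw, at 0.38 (-0.48 to 1.22), was not. Over all 1196 genes with at least 20 UMIs, 6.69% were lower and 4.77% higher. The 7 late genes held 0 to 9 UMIs in the cells without Gzma, and passed this filter only through the cells where they are higher. Both list counts are therefore set in part by the filter, and are a description. Gzmb had 1 UMI in the 16 cells without Gzma and 39 UMIs in the 19 cells with it. Prf1 had 8 and 55 UMIs, a log2 ratio of -2.07 (-3.35 to -0.99). Klra4 had 14 and 147 UMIs (-2.68, -3.58 to -1.89), Klra7 19 and 66 (-1.08) and Eomes 13 and 52 (-1.29, -2.29 to -0.39). Zeb2, a transcription factor needed for late maturation, had 1 and 33 UMIs. Itgam (CD11b), a marker of mature NK cells, was at 0 UMIs against 23, with a log2 ratio whose interval ends at -1.81.

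Of the early maturation list 10 of 14 genes had at least 20 UMIs, of which 3 were higher (Cd7, Ltb and Tcf7) and 3 lower, so that list went no single way. Single transcripts that were higher in the control members without Gzma are given next. Il2rb had 122 UMIs in the 16 cells and 84 in the 19, a log2 ratio of 1.25 (0.84 to 1.67). Tcf7, the factor TCF-1 of early NK and T cells, had 40 and 18 UMIs (1.87, 1.03 to 2.76), and Ltb, lymphotoxin beta, 45 and 31 (1.25). Il7r, the IL-7 receptor, had 13 UMIs in 7 of the 16 cells and 1 UMI in the 19. The 16 cells were not alike: 1 held 4 UMIs of Eomes and 0 of Il7r, and another 0 and 3. Maf had 17 and 4 UMIs (2.80) and Rora, a nuclear receptor of innate lymphoid cells, 12 and 4 (2.30). Tmem176b had 12 UMIs and Tmem176a 10, against 0 for both in the cells with Gzma, with log2 ratios whose intervals start at 2.19 and 1.88. Of the 23 further NK genes with at least 20 UMIs, 8 were lower and 2 higher in the same sense, beside 6.69% and 4.77% of all genes. The 8 were Eomes, Gzmb, Klra4, Klra7, Klra8, Nkg7, Prf1 and Xcl1, and the 2 were Cd7 and Il2rb. The limit of the filter given above applies here too. Among the others, Klrk1 differed by -0.16 (-0.66 to 0.33), Klrd1 by -0.50 (-1.20 to 0.16) and Klrc2 by 0.21 (-0.50 to 0.90).

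NK cells have close relatives, the helper-like innate lymphoid cells, of which those called ILC1 also carry Ncr1 and Klrb1c but are known for Il7r and for little or no Eomes. A list of 14 ILC1 and ILC2 genes, Il7r, Rora, Tmem176a and Tmem176b among them, was kept as markers of other cells that the rule could hold. In control members without Gzma 10 of its genes were detected, with 69 UMIs or 864 CPM in sum, and in those with Gzma 4 were detected, with 9 UMIs or 68.7 CPM. In MYC members without Gzma 6 were detected, with 22 UMIs or 1255 CPM, and in those with Gzma 0 of 14. The part of such cells among the members without Gzma was not tested, and these cells are given no other name.

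The MYC members were few, and not every gene named for the control members had the same sign in them. In the 5 cells without Gzma and the 8 with it, Il7r had 9 and 0 UMIs, Rora 5 and 0, Ltb 9 and 3 and Klrb1b 10 and 3. Eomes had 1 and 16 UMIs, Klra7 2 and 20, Prf1 2 and 18, Gzmb 0 and 9 and Itgam 0 and 5. Tcf7 had 2 UMIs in the cells without Gzma and 0 in those with it. The sign was opposite to that of the control members for Maf, with 1 and 4 UMIs, Cd7, with 2 and 9 (-0.93), and Irf8, with 5 and 11 (0.10). It was also opposite for Xcl1, of the early list, with 20 and 58 UMIs in control members (-0.82, -1.63 to -0.07) and 10 and 8 in MYC members (1.56, 0.07 to 3.10), both intervals leaving out 0. Median depths were 3812 and 5049 UMIs.

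**Figure D4:**
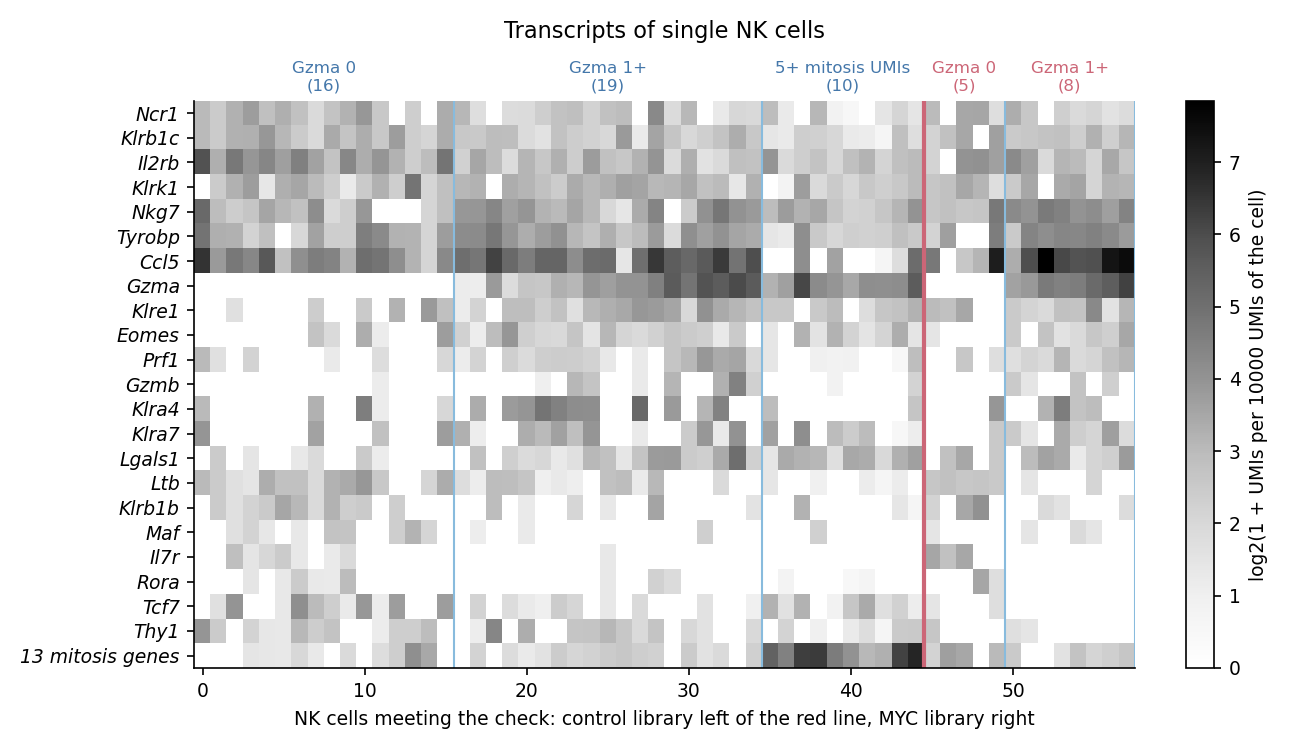
Level of single transcripts (rows; log2 of 1 plus UMIs per 10000 UMIs of the cell, darker is higher) in the 58 checked members (columns), with the 45 control cells left of the red line and the 13 MYC cells right of it, each divided by Gzma and by 5 or more mitosis UMIs. Eomes, Prf1, Gzmb and Klra7 are sparse in the 16 control and 5 MYC cells without Gzma, where most of Il7r stands, and the mitosis row is dark in 10 control cells.

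Dividing cells were found among the control members. Of the 45 checked control members 10 held 5 or more UMIs of the 13 mitosis genes (22.2%, 11.2 to 37.1), and of the 13 checked MYC members 0 (exact upper limit 24.7%). The summed mitosis list stood at 1925 and 374 CPM. Over all members 12 of 47 and 1 of 15 held as many, and the list stood at 2066 and 1850 CPM. The deepest MYC barcode, which the check left out, held 132 of the 156 MYC mitosis UMIs. The 10 dividing checked control members were deep, with a median of 15397 UMIs against 6721 in the other 35, and the deepest checked MYC member had 7262. The part of depth in this count was not tested. Of the 23 further NK genes with at least 20 UMIs, 13 were lower in dividing control members by a ratio whose counting interval leaves out 1, and 0 were higher. Over all 2333 genes with as many UMIs, 9.09% were lower and 20.3% higher. The levels are shares of all UMIs of the cells, and the dividing cells were deeper. A lower level therefore need not mean fewer UMIs per cell. Ccl5, a T and NK cell chemokine, had 84 UMIs in 5 of the 10 dividing cells and 681 UMIs in all 35 others, a log2 ratio of -2.48 (-2.83 to -2.15). A single dividing cell held 58 of the 84, and without it the ratio was -3.99 (-4.62 to -3.43). Klra4 differed by -3.09 and by -4.61 without that cell, Gzmb by -1.98 and -4.60, and Prf1 by -1.35 and -2.67. Ltb, at -2.71 and -2.53, Xcl1, at -1.75 and -1.57, and Ncr1, at -1.32 and -1.29, moved less. Gzma stood higher, by 0.58 (0.33 to 0.83), and by 0.27 (-0.00096 to 0.54) without that cell. Eomes, at 0.37 (-0.16 to 0.91), and Nkg7, at -0.33 (-0.67 to 0.02), had intervals that include 0, and Nkg7 without that cell had -0.53 (-0.92 to -0.16).

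The MYC transgene was at 0 UMIs in the members of both libraries. In the MYC library 84315 NK UMIs at a count of 0 allow up to 35.6 CPM, and the transgene stood at 3.01 CPM in that library's other barcodes, so its presence in NK cells was not detectable at this depth. The mouse gene Myc had 24 UMIs in 10 control members and 7 UMIs in 5 MYC members, 61.99 and 83.0 CPM, a log2 ratio of 0.42 (-1.04 to 1.68).

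Between the libraries, the members were compared on UMIs summed per library, over the 1112 genes with at least 50 UMIs. A gene was called where the levels differed at least 2-fold and the counting interval of the ratio left out 1. By this rule 69 genes (6.21%) were higher and 71 (6.38%) lower in MYC members. Over the checked members, 28 of 932 genes (3%) were higher and 68 (7.3%) lower, and 16 of the higher and 30 of the lower genes were called in both. Genes called in either direction were 12.6% over all members and 10.3% over checked members. In T cells of the same libraries, 4.24% of 4838 genes were higher and 6.8% lower, and in B cells 8.69% and 9.35% of 10321.

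Ccl5 had the most UMIs of the 16 genes called higher in both sets. It encodes a chemokine that NK and memory T cells store and release (chromosome 11, 83525778 to 83530518, minus strand). Per checked member it ranged from 0 to 65 UMIs in the control library (median 15) and from 0 to 83 in the MYC library (median 35), so the cells overlapped. The medians of the per-cell levels were 2372 and 5834 CPM. Summed over all members, Ccl5 went from 2064 CPM (control) to 5444 CPM (MYC), and its log2 ratio was 1.40 (1.23 to 1.57). Over checked members it stood at 2147 and 7787 CPM (1.86, 1.69 to 2.03). Without dividing cells it was 3228 and 7787 CPM, 2.41-fold higher. T cells showed the same direction, from 932 to 4979 CPM, and the other barcodes held 38.5 and 46.6 CPM.

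Granzyme and perforin genes had ratios whose counting intervals include 0 on the log2 scale over all members. Gzma had 548 and 122 UMIs, a log2 ratio of 0.03 (-0.26 to 0.32), which became 0.45 (0.15 to 0.73) over checked members. Prf1 had 82 and 20 UMIs (0.16, -0.62 to 0.88) and Gzmb 47 and 9 (-0.19, -1.40 to 0.86). Of the 8 tested granule genes, beside 6.21% higher and 6.38% lower of all tested genes, 0 were higher and 1 was lower, Serpinb9, the granzyme B inhibitor, with 80 and 5 UMIs (-1.80, -3.46 to -0.52). Gzmk, with 5 and 0 UMIs, and Gzmm, with 6 and 0, were at or near the floor. Lyst, a regulator of lytic granules, was called higher in both sets, with 37 and 18 UMIs (1.16, and 1.43 over checked members), and was singled out after its value was seen. The chemokine Ccl4 had 36 UMIs in control members and 0 in MYC members, with a log2 ratio whose interval ends at -1.01, and at -0.61 over checked members.

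Tcf7, the factor TCF-1, was called lower in MYC members. It (chromosome 11, 52252371 to 52283014, minus strand) ranged from 0 to 16 UMIs per control member and had a UMI in 30 of 47. It had 1 UMI in each of 2 of the 15 MYC members. Summed, it had 112 and 2 UMIs, a log2 ratio of -3.61 (-6.67 to -1.72), and -3.21 (-6.27 to -1.32) over checked members. Without dividing cells it was -3.02. Thy1, the surface protein CD90 (chromosome 9, 44043384 to 44048579, plus strand), had a UMI in 31 control and 3 MYC members, 96 and 5 UMIs in all (-2.06, -3.72 to -0.79), and -1.66 (-3.32 to -0.39) over checked members. T cells had smaller differences of the same sign, -1.01 for Tcf7 and -0.40 for Thy1.

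The share of cells with a UMI of these genes was set to 1 depth. If each member is thinned to 1000 UMIs, the expected share with a Tcf7 UMI is 23.2% in control and 2.72% in MYC members, from 63.8% and 13.3% unthinned. For Thy1 it is 24.1% and 5.50%, from 66.0% and 20% unthinned. In B cells, which should lack both, the unthinned shares were 0.813% and 0% for Tcf7 and 1.22% and 0.741% for Thy1. Prf1, by contrast, had expected thinned shares of 19.3% and 25.1%. Of the early maturation list 8 of 14 genes were tested, and 0 were higher and 2 lower, Tcf7 and Thy1, beside 6.21% and 6.38% of all tested genes. The median log2 ratio of the list was -0.49 against -0.05 over all tested genes. Il7r and Kit, of the same list, had too few UMIs to be tested. Il7r had 14 and 18 UMIs (9 of the 18 in the deepest MYC barcode) and Kit 13 and 4. Over checked members without dividing cells their log2 ratios were 1.21 (-0.18 to 2.52) and 0.67 (-1.48 to 2.51), both intervals including 0. Of the late list 7 of 14 were tested and none was called, beside the same 6.21% and 6.38%. Its median was 0.16, and it was 0.60 over checked members and -0.34 with a mitochondrial limit of 5%.

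The T-box factors and the receptors had no gene called over checked members. Eomes had 125 and 19 UMIs (-0.52, -1.30 to 0.18). Tbx21, which drives late maturation, had 60 and 4 UMIs (-1.71, -3.63 to -0.28), and over checked members its interval included 0 (-1.26, -3.18 to 0.17). Klrk1, Il2rb and Klra4 had log2 ratios of -0.20, -0.39 and -0.53 with intervals that include 0, and over checked members the ratios were 0.17, 0.06 and 0.01. The list of 24 further NK genes had a median of -0.39 over its 23 tested genes, with 0 higher and 4 lower (Klrc2, Klri2, Serpinb9 and Tbx21), beside 6.21% and 6.38% of all tested genes. Over checked members the median was 0.01, with 0 higher and 1 lower, Serpinb9, beside 3% and 7.3%. The check itself asks for genes of this list, so the second median is set in part by the choice of members.

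Of the 8 tested adaptor and signalling genes 0 were higher and 1 was lower, the kinase Fyn (-1.15, -2.33 to -0.17), beside 6.21% and 6.38% of all tested genes. Over checked members 1 was higher, Fcer1g, and 0 lower, beside 3% and 7.3%. Fcer1g, the signalling chain of Ncr1 and CD16, had a log2 ratio of 0.64 (0.24 to 1.03), and of 1.14 (0.73 to 1.53) over checked members. Tyrobp had 0.48 (0.12 to 0.82) and 0.91, and Cd52 0.77 and 1.17. These 3 genes also stood higher in the other barcodes of the MYC library, Fcer1g at 563 and 1068 CPM, Tyrobp at 869 and 1393 CPM and Cd52 at 985 and 1645 CPM. The part of free RNA in these ratios was not tested. Psmb8, a subunit of the immunoproteasome, which cuts peptides for class I molecules, had 82 and 45 UMIs (1.33, 0.78 to 1.88), and 1.18 over checked members. Of the 11 tested class I genes 2 were higher, Psmb8 and Psmb9, and 0 lower, beside 6.21% and 6.38% of all tested genes, with a median of 0.28. Over checked members 2 of 10 were higher, Psmb8 and H2-T23, beside 3%. The interferon response list had 0 of 4 tested genes called over all members, beside 6.21% higher and 6.38% lower of all tested genes.

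Of 79 tested ribosomal protein genes 14 were higher and 0 lower, against 6.21% and 6.38% of all tested genes, and 74 had a positive ratio. The median log2 ratio was 0.71. Over checked members it was 0.41, with 60 of 79 ratios positive, 2 genes higher and 0 lower, beside 3% and 7.3% of all tested genes. Summed, the list stood at 132138 and 206203 CPM, and at 133066 and 169237 CPM over checked members. Rps18, of the small subunit, had 473 and 282 UMIs (1.45, 1.24 to 1.67), 105 of the MYC UMIs in the deepest barcode. Rpl29 had 195 and 122 UMIs (1.52, 1.18 to 1.86), 54 of them in that barcode. Over checked members these ratios were 1.24 and 1.23. Outside NK cells the median of the list was 0.76 in T cells, with 16 of 80 tested genes higher beside 4.24% of all genes tested there, and 1.10 in B cells, with 47 of 80 higher beside 8.69%. The difference between cell types was not tested. T cells had 1.56 for Rps18 and 1.47 for Rpl29, and the other barcodes held Rps18 at 1064 and 2580 CPM.

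Of the other genes with the highest ratios, several rested on the deepest MYC barcode. Hist1h4d, a core histone gene, had 32 and 83 UMIs (3.57, 2.97 to 4.21), of which that barcode held 77, and over checked members the ratio was 0.54. H2afy, macroH2A, had 2.69, with 132 of 148 MYC UMIs in that barcode, and -0.02 over checked members. Stmn1, a microtubule regulator of dividing cells, had 1.60, with 65 of 68 UMIs there, and -2.42 over checked members. H2afx went from 1.43 to -1.45. Hist1h1c, at 2.71 and 1.60, Hist1h1e, at 2.38 and 1.27, Pgls, at 2.36 and 1.47, H2afj, at 1.46 and 1.35, Ndufb11, at 1.59 and 1.01, and Rpl15, at 1.40 and 0.62, kept their sign.

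The other lowest ratios included genes of DNA replication, present in the dividing control members. Hells, a chromatin remodeller of replicating cells, had 50 UMIs in 9 control members and 1 UMI in the MYC members (-3.44, -8.78 to -0.90). Mcm6 and Mcm3, subunits of the replicative helicase, had 57 and 2 UMIs (-2.63) and 60 and 3 UMIs (-2.12). Outside dividing cells Hells had 2 and 1 UMIs, Mcm6 8 and 1 and Mcm3 6 and 1, too few for a comparison. The remaining named genes were Ide (50 and 1 UMIs), Cnot6 (53 and 2), Aplp2 and Naa15 (51 and 2 each), Zfp207 (75 and 3), Pds5a (49 and 2) and Nup210 (75 and 4). These and the replication genes passed the filter of 50 UMIs almost wholly through the control members, where they are higher. The control members also held more UMIs in all, so the place of these genes among the lowest ratios is set in part by the filter. Of the cell cycle list 14 genes were tested, with 2 higher and 5 lower, beside 6.21% and 6.38% of all tested genes, and a median of -0.19. Over checked members 10 were tested, with 0 higher and 9 lower, beside 3% and 7.3%, and a median of -2.14. With a mitochondrial limit of 5% the median over members was 0.51, so its direction depends on which cells are kept.

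The list of genes that MYC is known to induce had 23 tested genes, with 1 higher and 5 lower, beside 6.21% and 6.38% of all tested genes, and a median log2 ratio of -0.15. Over checked members it had 20, with 0 higher and 2 lower, beside 3% and 7.3%, and a median of -0.23. Without dividing cells only 6 of its genes were tested, with a median of 0.20. In T cells its median was 0.38 over 48 tested genes. The oxidative phosphorylation list had 5 of 39 genes higher and 0 lower, beside the same 6.21% and 6.38%, with a median of 0.31. Over checked members 0 of 35 were higher and 3 lower, beside 3% and 7.3%, with a median of -0.01. Of the alarmins, danger signals that include S100a8 and S100a9, whose share the rule caps, 2 of 7 were higher, beside 6.21% of all tested genes, and 4 of 7 over checked members, beside 3%. The part of free neutrophil RNA in the alarmin ratios, which moves the same way as the neutrophil list above, was not tested.

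**Figure D5:**
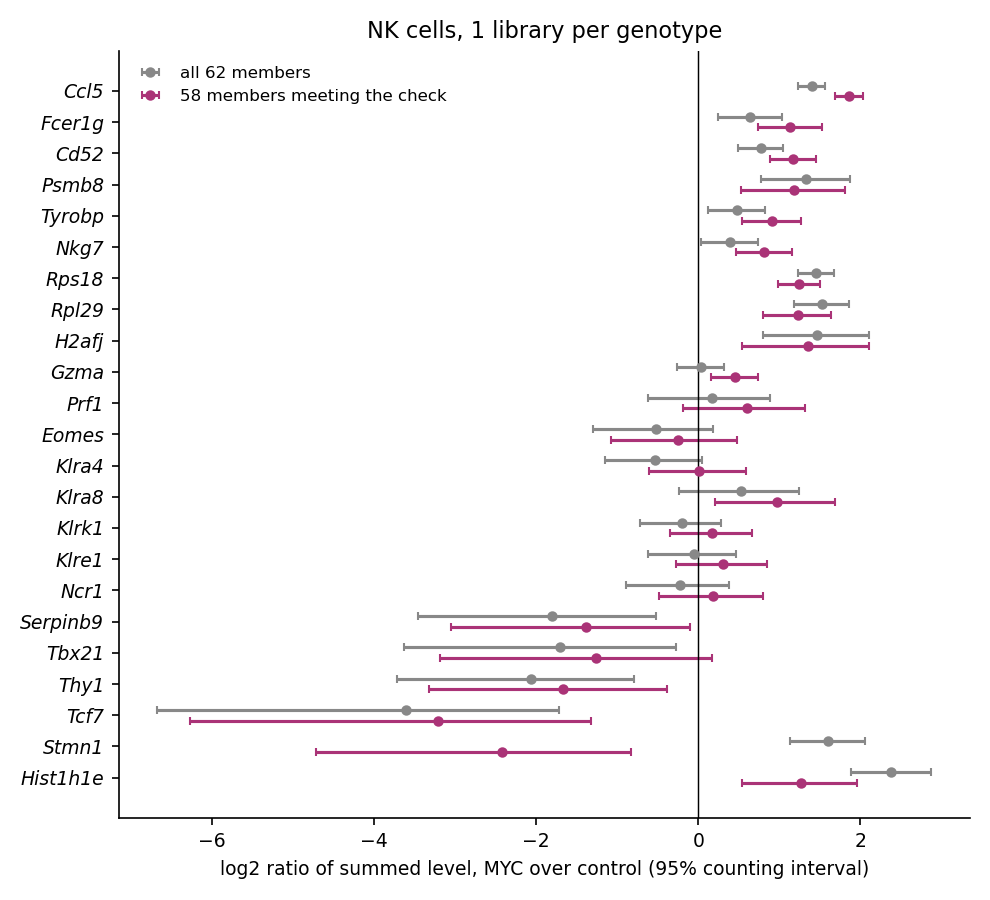
Log2 ratio of the summed level in MYC over control NK cells for selected genes, over all 62 members (grey) and the 58 checked members (purple), with 95% counting intervals. Ccl5 lies right of 0 in both sets (1.40 and 1.86) and Tcf7 left of it (-3.61 and -3.21), over all members Gzma, Prf1 and Klre1 lie near 0 (0.03, 0.16 and -0.06) and over checked members to its right (0.45, 0.60 and 0.30), and Stmn1 changes side (1.60 and -2.42).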

How the data were processed

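The deposited values are raw UMI counts of each gene in each barcode, in whole numbers. Per the file headers, the authors counted with Cell Ranger 6.0.0. Seurat and the build GRCm38 (mm10) are named per the submitters' processing notes, with no parameters given in the sources used here. Barcodes of each library (17073 control and 14496 MYC) were filtered as described, counts were summed over the members of a library and divided by their summed UMIs (CPM), and genes with at least 50 UMIs over both were compared. Intervals are 95%: exact Poisson, conditional binomial for ratios, Clopper-Pearson for shares and Newcombe for differences of shares. They treat UMIs as independent. List medians used a pseudocount of 1 CPM. No replicate existed and no test was run. The comparison was run on simulated counts drawn independently from the pooled profile of the members, which leaves out differences between cells.

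The members, lists and checks were chosen with earlier results of these data known. Named genes were the 15 highest over other barcodes, the 12 highest and 12 lowest ratios among genes whose level was not below that of other barcodes and that had a UMI in at least 10% of cells, the rule's genes, granzymes, Ly49 genes and leading or called list members. Genes such as Il7r, Maf, Rora, Tmem176a, Tmem176b and Ltb were chosen after their values were seen. Positions come from GENCODE vM21 (32235 of 32286 features matched). Python 3.11.15, numpy 2.4.6, scipy 1.17.1, pandas 2.3.3, scanpy 1.11.5 and matplotlib 3.10.9 were used. Alternatives changed the filters, thresholds, scaling, pseudocount and members.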

Additional observations from a re-analysis of the deposited data

Results flagged for a closer look

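Hells had opposite signs in NK cells and T cells of the same libraries. In the members its log2 ratio of MYC over control was -3.44, from 50 UMIs in 9 control members and 1 UMI in the MYC members. In T cells it was 1.05 (0.37 to 1.71). The difference between the cell types was not tested, and without dividing cells the NK ratio rests on 2 and 1 UMIs.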

How the results depend on the processing

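No paired analysis was possible because each genotype has 1 library. Of the results with an alternative value, the NK shares and Myc stayed within their intervals under those run. The enrichment of the 15 identity genes has no interval: against T cells all 15 stayed higher, some by much smaller folds. The 69 genes called higher became 37 when 2 marker genes were required of a member, 29 without the deepest NK cell of each library, 28 over checked members, 20 over checked members with under 5 mitosis UMIs, 45 when each cell weighed equally, 144 with a filter of 20 UMIs and 288 with none. The 71 called lower became 17 over checked members with under 5 mitosis UMIs, 137 with the filter of 20 UMIs and 146 with none. In the same order (2 marker genes, without the deepest cell, checked members), the median of the ribosomal list, 0.71, became 0.46, 0.40 and 0.41, and 0.50 with under 5 mitosis UMIs and 0.34 with equal weights. That of the 24 further NK genes, -0.39, became 0.16, 0.054 and 0.014, and -0.71 with a mitochondrial limit of 5%. That of the cell cycle list, -0.19, became -2.27, -2.23 and -2.14, and 0.51 with the 5% limit and -1.02 with equal weights. That of the late maturation list, 0.16, became 0.60, 0.48 and 0.60, and -0.34 with the 5% limit and 0.45 with under 5 mitosis UMIs. The list induced by MYC turned to 0.20 with under 5 mitosis UMIs, over 6 tested genes. The interferon list turned to 0.11 with 2 marker genes and 0.17 without the deepest cell. H2afy turned to -0.092, -0.023 and -0.016, Stmn1 to -2.29, -2.25 and -2.42, and H2afx to -1.27, -1.50 and -1.45, and to -0.17 with equal weights. Hells turned to 0.84 with under 5 mitosis UMIs. Under a seeded thinning the MYC shares of Tcf7 and Thy1, 13.3% and 20%, became 0% with 2 marker genes required, and that of Itgam, 20%, became 0% at 2000 UMIs. The mean over all thinnings is the value reported. Over 44 named genes 24 stayed within their interval and 30 kept 1 direction under every alternative run. The checked members, the mitosis limit, leaving out 1 dividing cell and the mean over thinnings were chosen after seeing the data. Fewer or other cells make up these sets by construction, and other causes were not tested. The 15 MYC members and their 84315 UMIs set the precision.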
